A study of Mus musculus with 12 samples.

Results

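The metabolic and hormone-sensing nuclear receptors of mouse liver were followed here as 9 genes, taken by symbol from the deposited count tables, which list 23420 gene symbols. The genes were Nr1i2, Nr1i3, Nr1h3, Nr1h4, Nr0b2, Ppara, Rxra, Esr1 and Thrb, and 9 of 9 were found in both the female and the male table. Livers came from 12 mice at Zeitgeber time 10 (ZT10, 10 hours after lights on, late in the light phase), and their RNA was measured by QuantSeq, which counts reads near the 3′ ends of mRNAs. The 4 groups held 3 mice each: wild type females (WTF), Siah2 KO females (KOF), wild type males (WTM) and Siah2 KO males (KOM). The mice were C57BL/6, about 20 weeks of age and on normal chow. The Siah2 KO is a germline deletion of the gene for the ubiquitin ligase SIAH2, carried by every cell of the animal, and wild type and Siah2 KO mice descend from intercrossed heterozygotes but were kept as separate homozygous lines, so that line and genotype cannot be told apart.

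Nuclear receptors are transcription factors that most often bind a small lipid-soluble ligand and DNA. PXR (Nr1i2) and CAR (Nr1i3) sense drugs and other foreign chemicals and induce the enzymes that clear them, LXRα (Nr1h3) senses oxysterols, FXR (Nr1h4) senses bile acids, and PPARα (Ppara) senses fatty acids. These 5 bind DNA together with a retinoid X receptor, of which RXRα (Rxra) is the main form in liver, and so does the thyroid hormone receptor β (Thrb). SHP (Nr0b2) has no DNA-binding domain and represses other receptors, and it is a classical target of FXR in the feedback on bile acid synthesis. The estrogen receptor α (Esr1) binds DNA as a homodimer.

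In GRCm38.p6, Nr1i2 spans chr16:38248349-38294849, Nr1h3 chr2:91184061-91202829 and Nr1h4 chr10:89454234-89533645, all on the minus strand. On the plus strand, Nr1i3 spans chr1:171213934-171218845, Nr0b2 chr4:133553376-133556686, Ppara chr15:85734910-85806851, Rxra chr2:27676445-27763319, Esr1 chr10:4611989-5005633 and Thrb chr14:17659225-18040097. The stretches around the starts of Nr1i2 and Nr0b2 are printed because these were the receptors with an unadjusted p under 0.05 between Siah2 KO and wild type females. RefSeq held 13 start windows for the 9 genes, each 300 bases long, from 250 bases before to 50 after a start. A script searched both strands for AGGTCA (the half-site of many nuclear receptors), AGTTCA (a variant of it), TCAAGG (the core of the site of LRH-1, a receptor known to act on Nr0b2, chosen after the sequences were seen) and CACGTG (the E-box bound by clock and other bHLH factors). Capitals mark any of these motifs.
Nr1i2, chr16:38294775-38295074, minus strand: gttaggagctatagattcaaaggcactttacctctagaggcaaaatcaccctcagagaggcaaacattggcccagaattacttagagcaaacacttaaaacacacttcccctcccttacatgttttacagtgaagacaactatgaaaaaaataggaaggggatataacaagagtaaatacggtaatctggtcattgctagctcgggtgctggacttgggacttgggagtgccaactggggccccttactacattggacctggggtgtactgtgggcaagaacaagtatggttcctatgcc
Nr0b2, chr4:133553126-133553425, plus strand: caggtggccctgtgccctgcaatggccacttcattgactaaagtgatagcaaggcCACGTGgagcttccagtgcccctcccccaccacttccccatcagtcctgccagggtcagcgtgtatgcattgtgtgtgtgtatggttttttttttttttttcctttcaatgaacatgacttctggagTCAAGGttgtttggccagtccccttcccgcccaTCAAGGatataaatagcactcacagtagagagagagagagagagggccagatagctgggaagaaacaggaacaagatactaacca
The Nr0b2 window held 2 TCAAGG motifs and 1 CACGTG motif, and the Nr1i2 window held none of the motifs searched. AGGTCA stood in 3 of the 13 windows (Nr1h4, Rxra and Thrb), AGTTCA in 1 (Thrb), TCAAGG in 3 (Nr0b2, Esr1 and Thrb) and CACGTG in 3 (Nr1i3, Nr0b2 and Thrb). Over 32851 mouse start windows of the same length, AGGTCA stood in 16.3%, AGTTCA in 14%, TCAAGG in 14.4% and CACGTG in 7.15%. These matches are descriptions of letters, since no binding was measured in these livers.

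Each library held between 1293688 and 4056144 counts on genes, with a median of 2670267.5. Xist was at 66.0 to 113 CPM (counts per 1e6 counts) in females and at most 0.863 in males, so the libraries match their labelled sex. Siah2 averaged 13.5 ± 2.93 CPM (SD, n = 3) in WTF and 10.7 ± 1.57 in KOF, and 21.7 ± 5.15 in WTM and 13.9 ± 4.05 in KOM. No place of these reads relative to the deleted part is given in the sources used here, so they do not check the genotype. The library of WTF 1091 stood apart: in a chi-square comparison of counts it differed from the other WTF libraries by 42.0 and 44.9 per degree of freedom, against 6.7 to 21.8 for the other pairs of one group. The hepatocyte markers (6 of 6 detected) summed to between 24600 and 39200 CPM over the 12 mice, while the fat marker Plin1 and the pancreatic markers Cpa1, Ctrb1 and Amy2a5 were at 0 in each library. Hba-a1 and Hbb-b1 were also at 0, so that red cell content rests on Alas2 alone, which was at 8.43 to 25.1 CPM in females and 83.6 to 154 in males. The summed markers of other cells ran from 1.13 to 13.3 CPM for lymphocytes, 9.84 to 56.0 for bile duct, 132 to 352 for stellate and 156 to 300 for endothelial cells. Those of fat cells, from Adipoq and Cfd, were at most 2.47 CPM outside KOM and 3.45 to 26.3 in KOM. In whole liver, fewer cells that express a gene and less RNA of it per cell cannot be told apart.

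The receptors covered a wide range of levels. CPM here is the count divided by the library's TMM-scaled total, and since the kit gives about 1 read per transcript end it is not divided by length. How fully the reads of each gene's 3′ end were counted was not tested, so the order below is one of counts. Over the 12 mice Rxra had the highest mean, 465.4 CPM, and ranked 305 among all gene symbols, followed by Ppara at 347.2 CPM. Nr1h3 (127.6), Nr1h4 (93.2) and Nr1i2 (88.4) formed the middle of the order, Thrb stood at 43.9, and the lowest were Nr1i3 (9.36), Nr0b2 (7.61) and Esr1 (3.71). The common dimer partner thus had the highest mean CPM of the set, and the repressor and the estrogen receptor were near the lower end. Rxra exceeded Ppara in 11 of 12 mice, and Ppara exceeded Nr1h3 in 12 of 12 with no overlap of their ranges. Nr1h3 exceeded Nr1h4 in 11 mice, Nr1i2 exceeded Thrb in 11, and Thrb exceeded Nr1i3 in 12. The order of Nr1h4 over Nr1i2 held in 6 of 12 mice and that of Nr1i3 over Nr0b2 in 7 of 12, so these neighbours did not differ beyond their spread. Nr0b2 exceeded Esr1 in 10 of 12.

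How much the levels varied between mice also differed. The highest mouse was 1.47 times the lowest for Rxra, 1.69 times for Ppara, 1.88 for Nr1h4 and 2.17 for Nr1h3. Nr1i2 varied 3.36-fold, Nr1i3 3.64-fold and Thrb 4.74-fold. Esr1 and Nr0b2 varied 10.5-fold and 12-fold, but from counts as low as 2 and 4 reads in a library. One count was worth between 0.246 and 0.761 CPM, and at the groups' mean counts, counting error alone gives a coefficient of variation between libraries of 17.8% to 37.8% for Nr0b2 and of 21.8% to 48.0% for Esr1.

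**Figure D1:**
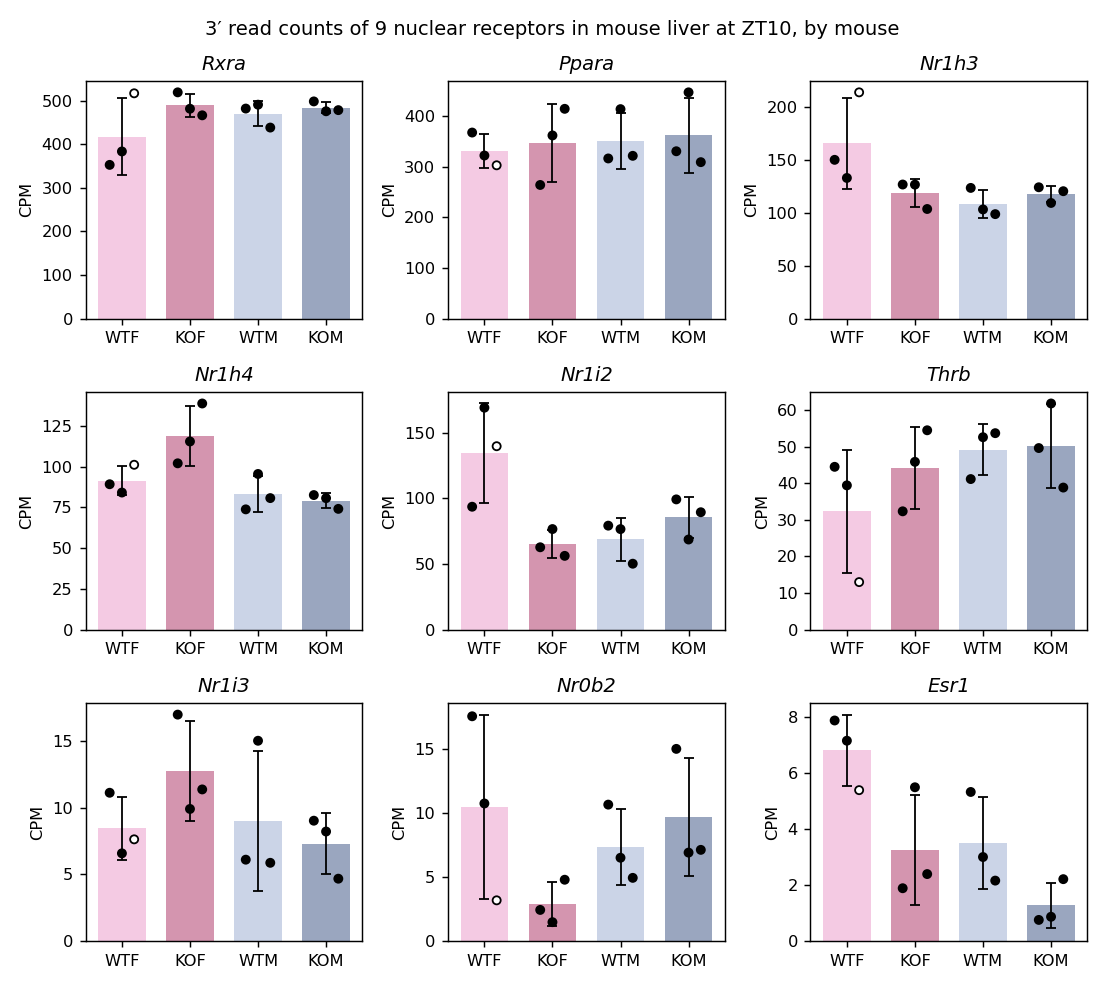
CPM of the 9 receptors (y axis, linear, from 0; its scale differs between panels) in the 4 groups (x axis), with a point per mouse, a bar for the mean and an error bar for the SD (n = 3); the open point is WTF 1091. Nr1i2 lies between 93.6 and 169 CPM in WTF and between 56.2 and 76.6 in KOF, while Rxra and Ppara overlap between all groups.

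Genotypes were compared within females first. Nr1i2, the gene of PXR, was 2.06 times as high in WTF as in KOF, and Nr0b2, the gene of SHP, 3.63 times as high. Neither passed the threshold of 0.05 for the p that edgeR's quasi-likelihood F test gave after Benjamini-Hochberg adjustment over all genes, and DESeq2 called Nr1i2 but not Nr0b2. By edgeR 0 of the 9 receptors were called, as were 0% of all 9465 genes tested. An unadjusted p under 0.05 was reached by 2 of 9 (Nr1i2 and Nr0b2), against 15.6% of all genes, and DESeq2 called 1 of 9, against 3.7% of all genes with an adjusted p, which Esr1 did not get. The groups did not overlap for 3 of 9 (Nr1i2, Nr1h3 and Nr1h4), against 23.4% of all genes.

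Nr1i2 read 93.6, 169 and 140 CPM in WTF 1089, 1090 and 1091, and 62.8, 76.6 and 56.2 CPM in KOF 1070, 1104 and 1105. The 3 wild type females lay above the 3 Siah2 KO females. The group means were 134 ± 38.0 and 65.2 ± 10.4 CPM (SD, n = 3). The log2 fold change was -1.05 with an SE of 0.27 and a 95% interval of -1.65 to -0.45 (edgeR adjusted p = 0.121), and the adjusted p was 0.0320 by DESeq2 and 0.132 by limma-voom. The call therefore depended on the tool. In a single set of data simulated for the female comparison, 15.2% of DESeq2 calls were false, against 5.78% of edgeR calls. That set was drawn with edgeR's estimates of the spread and held no library apart from the rest. It therefore cannot show whether the call of Nr1i2 is false. The call of Nr1i2 depended also on single mice: without WTF 1091, edgeR called Nr1i2 (adjusted p = 0.0306) and Nr0b2 (adjusted p = 0.0121), at 9.64% of all genes called. With each of the other 5 females left out edgeR did not call Nr1i2, the highest adjusted p being 0.367 without KOF 1070. DESeq2 kept the call of Nr1i2 in 2 of 6 such fits, without WTF 1091 or WTF 1089. Over all genes DESeq2 called 828 of 6795 without WTF 1091 and 160 of 6339 without WTF 1089. It called 216 of 6031 without WTF 1090, 52 of 7093 without KOF 1070, 73 of 6439 without KOF 1104 and 76 of 7071 without KOF 1105. The summed lymphocyte markers (4 of 4 detected) also lay higher in WTF (7.62 to 13.3 CPM) than in KOF (6.23 to 7.18). Those of stellate cells (5 of 5) were at 326 and 352 CPM in WTF 1089 and 1090, 173 in WTF 1091 and 164 to 213 in KOF. Their part in the female values was not tested.

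Nr0b2 read 17.6, 10.8 and 3.17 CPM in WTF, from 49, 36 and 10 counts. In KOF it read 2.42, 1.47 and 4.79 CPM, from 9, 4 and 8 counts. The groups overlapped, because WTF 1091 lay below KOF 1105. The log2 fold change was -1.95 (SE 0.65, 95% interval -3.41 to -0.50, edgeR adjusted p = 0.199), and DESeq2 gave an adjusted p of 0.110. Nr0b2 passed the edgeR threshold when genes with few counts were kept in (adjusted p = 0.00657), and Nr1i2 did too (adjusted p = 0.0215), at 2.82% of all genes called. When all 4 groups shared 1 estimate of the spread, Nr1i2 passed (adjusted p = 0.0306) at 4.35% of all genes.

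The sensors of sterols and bile acids had smaller estimates. Nr1h3 (LXRα) read 150, 133 and 214 CPM in WTF and 127, 127 and 104 in KOF, which did not overlap by a small margin, with WTF 1091 the highest. Its log2 fold change was -0.49 (edgeR adjusted p = 0.376), and -0.25 without WTF 1091. LXRα is also made by Kupffer cells, whose 6 markers (6 of 6 detected) summed to 436 to 587 CPM in WTF, 318 to 765 in KOF, 75.2 to 570 in WTM and 96.5 to 219 in KOM, and their part in the Nr1h3 level was not tested. Nr1h4 (FXR) had the opposite sign, with 89.3, 84.2 and 101 CPM in WTF and 102, 116 and 139 in KOF. The highest wild type and the lowest KO were less than 1 CPM apart, and the log2 fold change was 0.36 (edgeR adjusted p = 0.482), or 0.22 without KOF 1105.

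CAR, the fatty acid receptor and the dimer partner gave no call. Nr1i3 read 11.1, 6.57 and 7.62 CPM in WTF and 17.0, 9.90 and 11.4 in KOF, a log2 fold change of 0.60 (95% interval -0.18 to 1.39). Ppara averaged 330.5 ± 33.2 CPM in WTF and 346.3 ± 76.2 in KOF, and its interval of -0.49 to 0.60 on the log2 scale bounds a change in either direction. Rxra averaged 418 ± 87.3 and 489 ± 27.2 CPM, with an interval of -0.31 to 0.74. The groups overlapped for each of these genes.

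The hormone receptors Esr1 and Thrb were not called either. Esr1 read 7.89, 7.16 and 5.40 CPM in WTF (22, 24 and 17 counts) and 1.89, 5.50 and 2.39 in KOF (7, 15 and 4 counts), a log2 fold change of -1.07 (SE 0.49, edgeR adjusted p = 0.329). Only KOF 1104 reached the wild type range, and without it the estimate was -1.70. Thrb read 44.5, 39.4 and 13.0 CPM in WTF and 32.3, 45.8 and 54.4 in KOF, with a log2 fold change of 0.43 and an interval of -0.49 to 1.35. The value of WTF 1091 was the lowest of the 12 mice, the others lying between 32.3 and 61.7 CPM, and without it the estimate was 0.055.

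**Figure D2:**
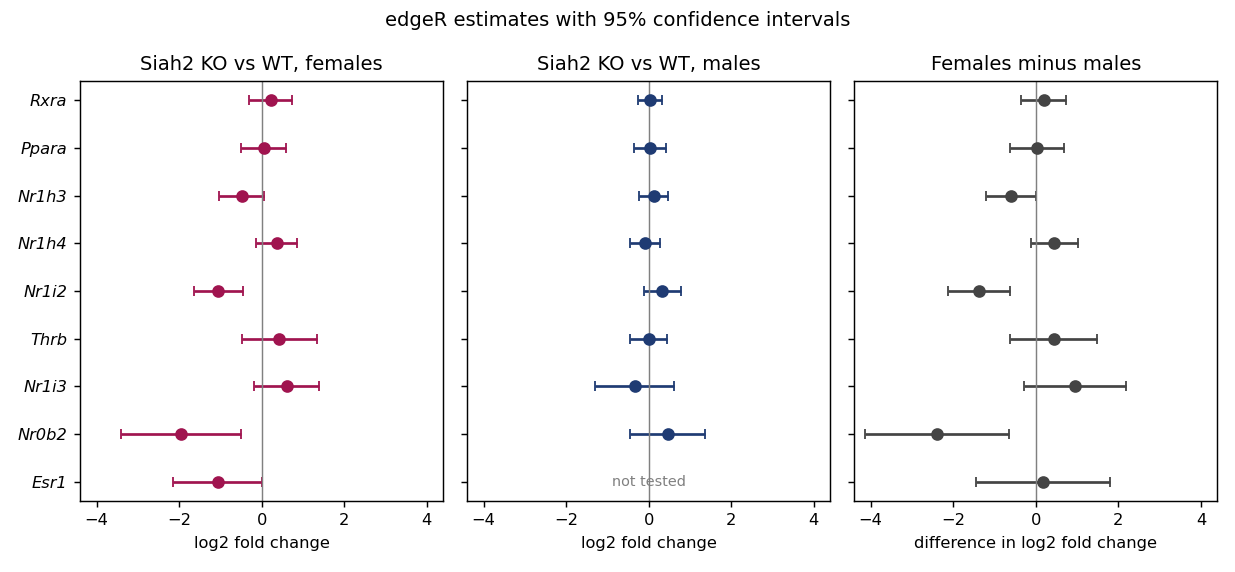
Log2 fold change of each receptor (x axis, edgeR, with 95% confidence interval) in Siah2 KO against wild type females and males, and the female change minus the male change. In females and in the difference the intervals of Nr1i2 (-1.65 to -0.45 and -2.12 to -0.61) and Nr0b2 lie below 0, and in males each of the 8 intervals spans 0.

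In males the same comparison gave 0 receptors called of the 8 tested by edgeR, as it gave 0% of all 8823 genes, and 0 by DESeq2, against 0.037% of all genes. An unadjusted p under 0.05 was reached by 0 of 8, against 4.05% of all genes, and the groups overlapped for each of the 8, against 8.87% of all genes whose groups did not. Nr1i2 read 79.2, 76.6 and 50.3 CPM in WTM and 99.2, 68.7 and 89.4 in KOM. The KO mean of 85.7 ± 15.6 was here above the wild type mean of 68.7 ± 16.0, with a log2 fold change of 0.33 (95% interval -0.13 to 0.78, edgeR adjusted p = 1.0). Nr0b2 read 10.7, 6.51 and 4.93 CPM in WTM and 15.0, 6.91 and 7.12 in KOM, a log2 fold change of 0.45 with an interval of -0.46 to 1.37. For both genes the mice of the 2 genotypes were interspersed.

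The remaining male values were close between genotypes where counts were high. Rxra averaged 470.4 ± 28.1 CPM in WTM and 484 ± 12.4 in KOM, and the interval of its log2 fold change, -0.26 to 0.32, was the narrowest of the set. Ppara averaged 350.2 ± 54.7 and 362 ± 74.1 CPM, and Nr1h3 108 ± 13.2 and 118 ± 7.67. Nr1h4 averaged 83.4 ± 11.1 and 79.2 ± 4.44 CPM, with an interval of -0.46 to 0.27. Thrb averaged 49.1 ± 6.93 and 50.04 ± 11.5 CPM. At lower counts the intervals were wide, as for Nr1i3 at 8.99 ± 5.22 and 7.29 ± 2.31 CPM (-1.29 to 0.61). Esr1 fell below edgeR's count filter in males and was not tested by it, its values being 5.33, 3.00 and 2.16 CPM in WTM and 0.751, 0.864 and 2.21 in KOM, from 2 to 9 counts. KOM 1081, the KO male with 9 counts, lay inside the wild type range and the other KO males lay below it.

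Whether the sexes differ in their response to Siah2 loss was tested in 1 fit as the female log2 fold change less the male one. The difference was largest in size for Nr0b2 (-2.40 on the log2 scale, SE 0.82) and next for Nr1i2 (-1.37, SE 0.36, 95% interval -2.12 to -0.61). The estimates of both genes had opposite signs in the sexes, and their male intervals included 0. By edgeR 0 of 9 were called, against 0.255% of all genes, with an adjusted p of 0.104 for Nr1i2 and 0.193 for Nr0b2. An unadjusted p under 0.05 was reached by 2 of 9, against 14.1% of all genes. DESeq2 called 1 of 9 (Nr1i2, adjusted p = 0.0200), against 3.32% of all genes with an adjusted p, which Esr1 did not get. DESeq2 kept that call in 7 of the 12 fits that left out a mouse. Its calls over all genes in these fits ran from 99 of 5368 (without WTM 1087) to 647 of 6752 (without WTF 1091). Without WTF 1091 edgeR called both genes (adjusted p = 0.0357 and 0.0234), at 5.15% of all genes called, and with genes of few counts kept in it also called both, at 1.82% of all genes. The other 7 receptors had adjusted p-values of 0.370 or more, and intervals that included 0. Their differences were -0.60 for Nr1h3, 0.45 for Nr1h4, 0.95 for Nr1i3, 0.43 for Thrb, 0.19 for Rxra, 0.16 for Esr1 and 0.02 for Ppara.

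Wild type females and males were compared to show where the receptors stood with Siah2 present. Nr1i2 was 1.95 times as high in WTF as in WTM, and Esr1 was 1.95 times and Nr1h3 1.53 times as high, each without overlap of the groups. For Esr1 the margin was small: WTF 1091 read 5.40 CPM (17 counts) and WTM 1055 read 5.33 CPM (7 counts). Scaled by plain totals, these mice read 4.86 and 5.41 CPM, so the Esr1 groups then overlapped. By edgeR 0 of the 9 receptors were called, against 1.39% of all genes, and by DESeq2 also 0, against 3.74%. An unadjusted p under 0.05 was reached by 3 of 9 (Nr1i2, Nr1h3 and Esr1), against 15.2% of all genes, and the same 3 of 9 did not overlap, against 22.7% of all genes. The log2 difference of Nr1i2 was 1.01 (SE 0.29, 95% interval 0.35 to 1.66, edgeR adjusted p = 0.147, DESeq2 adjusted p = 0.0772). edgeR called Nr1i2 when all 4 groups shared a spread (adjusted p = 0.0361, at 5.15% of all genes) and when genes of few counts were kept in (adjusted p = 0.0296, at 3.17%). Esr1 differed by 1.09 (edgeR adjusted p = 0.294) and Nr1h3 by 0.65 (adjusted p = 0.272). The differences of the other receptors were 0.59 for Nr0b2, -0.59 for Thrb, 0.17 for Nr1h4, -0.13 for Rxra, -0.06 for Nr1i3 and -0.05 for Ppara, with intervals that included 0. The comparison shares the WTF mice with that of the genotypes in females, so the values are not independent of it.

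By group means, the order of the sexes among KO mice was the reverse of that among wild types for Nr1i2, Nr1i3, Nr0b2 and Rxra. It was the same for Nr1h3, Nr1h4, Ppara, Esr1 and Thrb, and all of this is a description without a test. Nr1i2 in KOF (65.2 CPM) was below that in KOM (85.7 CPM), with overlap, and close to that in WTM (68.7 CPM). Of the 8 receptors past the count filter, 3 did not overlap between KOF and KOM, against 30.7% of all genes. Nr1h4 was 1.5 times and Nr1i3 1.75 times as high in KOF as in KOM, and Nr0b2 was 3.35 times as high in KOM as in KOF. Nr1h3 averaged 118.8 CPM in KOF and 117.8 in KOM, and Ppara, Rxra and Thrb also overlapped. Esr1, under the count filter here, averaged 3.26 and 1.27 CPM.

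**Figure D3:**
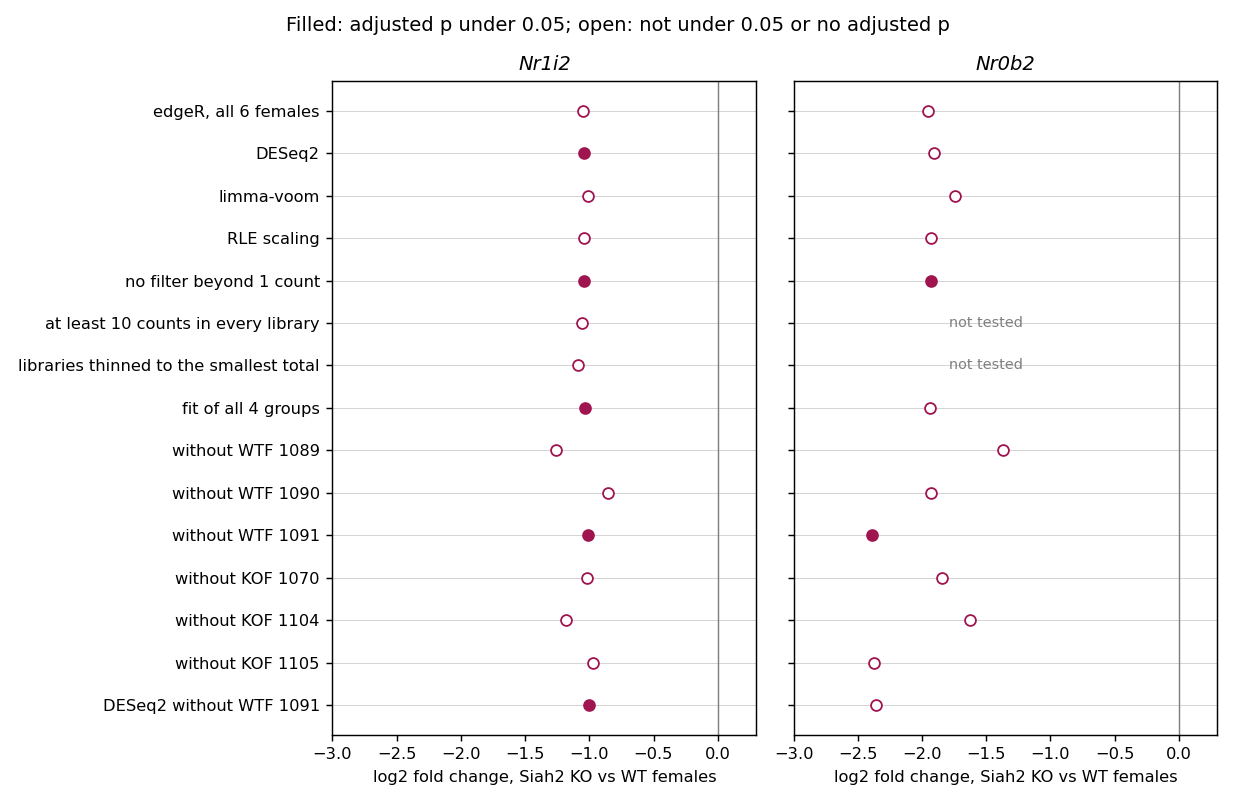
Log2 fold change of Nr1i2 and Nr0b2 in Siah2 KO against wild type females (x axis) under the settings listed (y axis), filled where the adjusted p was under 0.05. The Nr1i2 estimates plotted lie between -1.26 and -0.86, while Nr0b2 was not tested where each library had to hold 10 counts or was thinned.

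The target genes of PXR and CAR, enzymes and transporters of drug clearance, mostly had higher estimates in KOF. Of the receptors themselves, Nr1i2 had a lower and Nr1i3 a higher estimate there. Of the 10 tested, 9 had a higher and 1 a lower estimate in KOF, with a median log2 fold change of 0.304 against -0.0346 over all genes, and edgeR called none; 2 reached an unadjusted p under 0.05 and 1 was called by DESeq2. Over all genes in females 47.3% had a higher estimate, 15.6% reached that p and 3.7% were called by DESeq2. The called gene was Alas1, the first enzyme of heme synthesis, at 91.0 ± 22.8 CPM in WTF and 187 ± 54.8 in KOF (log2 fold change 1.02, DESeq2 adjusted p = 0.0367, edgeR adjusted p = 0.142). The other with a small p was Abcc2, an export pump of conjugates, at -0.68 (edgeR adjusted p = 0.263). In males 3 of 8 were higher and 5 lower, with a median of -0.0829, edgeR and DESeq2 called 0, and none had an unadjusted p under 0.05. Over all genes in males 48.1% were higher (median -0.0106), 4.05% reached that p and DESeq2 called 0.037%. For the difference between the sexes 10 of 11 were higher (median 0.542, edgeR 0 called, 2 with an unadjusted p under 0.05, DESeq2 0 called), with a small p for Cyp2b10, a phenobarbital-inducible enzyme, at 1.84 (edgeR adjusted p = 0.198), and for Abcc2 at -0.92 (adjusted p = 0.278). Over all genes 48.4% were higher for the difference (median -0.0237), 14.1% reached that p, edgeR called 0.255% and DESeq2 3.32%. Between the wild type sexes DESeq2 called Cyp2b10 and the transporter Slco1a4, which were at 23.8 and 264 CPM in WTF and at 6.01 and 106.5 in WTM. The third named there was the efflux pump Abcb1a, 1.70 higher in WTF on the log2 scale (edgeR adjusted p = 0.0664). Between the wild type sexes edgeR called 1.39% and DESeq2 3.74% of all genes, and these shares apply to the lists below as well.

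Targets of FXR and SHP handle bile acids and their transport. In females 4 of the 7 tested were higher and 3 lower in KOF (median 0.0289), edgeR called 0, and 2 had an unadjusted p under 0.05. DESeq2 called both of these lower: Cyp8b1, the enzyme that sets the share of cholic acid, and Abcb4, the canalicular phospholipid transporter. Over all genes in females 47.3% were higher, 15.6% reached that p and DESeq2 called 3.7%. The list was not split into induced and repressed targets, so its counts and medians do not measure the activity of FXR or SHP. Cyp8b1 was at 60.3 to 92.5 CPM in WTF and at 21.3 to 22.1 in KOF, so the groups stood apart (log2 fold change -1.86, SE 0.25, edgeR adjusted p = 0.0674, DESeq2 adjusted p = 2.43e-06). Abcb4 was at 326 ± 74.4 and 169 ± 45.6 CPM (edgeR adjusted p = 0.156, DESeq2 adjusted p = 0.0443). In males Cyp8b1 averaged 46.6 ± 15.3 CPM in WTM and 62.5 ± 16.1 in KOM, 2 of 7 were higher and 5 lower (median -0.200), and none had an unadjusted p under 0.05. For the difference between the sexes edgeR called 1 of the 7, Cyp8b1 (-2.29, SE 0.37, edgeR adjusted p = 0.0460), and DESeq2 called it too (adjusted p = 2.7e-05). Over all genes edgeR called 0.255% and DESeq2 3.32% for the difference. Cyp7a1, the rate-limiting enzyme of bile acid synthesis, averaged 331 ± 131 CPM in WTF, 534.5 ± 234 in KOF, 148 ± 20.9 in WTM and 112 ± 44.9 in KOM. It was called by DESeq2 between the wild type sexes (adjusted p = 0.0336) and had a difference in response of 1.10 (edgeR adjusted p = 0.342). Slc10a1, the bile acid uptake carrier, was 0.79 higher in WTF than in WTM on the log2 scale (edgeR adjusted p = 0.180), Cyp8b1 was 0.78 higher there (adjusted p = 0.235), and Abcb4 differed in response by -1.04 (adjusted p = 0.203).

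PPARα targets serve fatty acid uptake, oxidation and storage. Ppara itself differed by 0.05 on the log2 scale in females, while 14 of its 20 targets tested were lower in KOF and 6 higher, with a median log2 fold change of -0.392. An unadjusted p under 0.05 was reached by 5 of 20 (4 lower, 1 higher), edgeR called 0, and DESeq2 called 1, against 15.6% of all genes at that p and 3.7% called by DESeq2. The called gene was Plin2, a lipid droplet coat protein, at 565 ± 169 CPM in WTF and 215 ± 58.2 in KOF (log2 fold change -1.41, edgeR adjusted p = 0.0962, DESeq2 adjusted p = 0.00228). Cpt2, of mitochondrial fatty acid import, was at -0.74 (edgeR adjusted p = 0.243) and Cyp4a14, a fatty acid hydroxylase, at -1.28 (adjusted p = 0.272). In males 11 were higher and 9 lower (median 0.0555), edgeR and DESeq2 called 0, and the smallest p was that of Vnn1, a pantetheinase, at 0.89 (edgeR adjusted p = 1.0). For the difference between the sexes 13 of 20 were lower (median -0.436), 6 had an unadjusted p under 0.05, edgeR called 0, and DESeq2 called 1, Plin2 (-1.57, DESeq2 adjusted p = 0.0179), against 14.1% of all genes at that p and 3.32% called by DESeq2. Vnn1 followed (-1.33, edgeR adjusted p = 0.228). Between the wild type sexes DESeq2 called Acot3, a peroxisomal thioesterase, and Vnn1 higher in WTF than in WTM.

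LXR targets serve sterol export and lipid synthesis. In females 6 of 11 were higher and 5 lower in KOF (median 0.0916), with 0 called by edgeR or DESeq2 and 0 at an unadjusted p under 0.05. In males 4 were higher and 7 lower (median -0.132), and Abcg8, of sterol efflux, had an unadjusted p of 0.0260 (0.47, edgeR adjusted p = 1.0). Abcg8 also differed in response between the sexes by -0.84 (edgeR adjusted p = 0.173), as did Rnf145 by 0.61 (adjusted p = 0.342). Between the wild type sexes edgeR and DESeq2 called Lpl, lipoprotein lipase, which was at 27.2 ± 5.18 CPM in WTF and 66.1 ± 5.84 in WTM (edgeR adjusted p = 0.0465). Abcg5, the partner of Abcg8, was 0.63 higher in WTF on the log2 scale (edgeR adjusted p = 0.246).

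Of the thyroid hormone receptor targets, 5 of 7 were lower and 2 higher in KOF (median -0.228), edgeR called 0, and 2 had an unadjusted p under 0.05. Bcl3, a cofactor of NF-κB, was at 13.0 ± 4.38 CPM in WTF and 3.70 ± 0.829 in KOF (log2 fold change -1.79, edgeR adjusted p = 0.106, DESeq2 adjusted p = 0.0304). Thrsp, a regulator of lipid synthesis, was at 1.23 (edgeR adjusted p = 0.198), opposite in direction. In males 5 of 7 were higher (median 0.162), edgeR called 0, Gpd2 was at 0.48 (edgeR adjusted p = 1.0), and DESeq2 called Dio1, the deiodinase that activates thyroxine, at 51.0 ± 7.29 CPM in WTM and 102.5 ± 15.9 in KOM (log2 fold change 0.98, DESeq2 adjusted p = 0.0200, edgeR adjusted p = 0.290). An unadjusted p under 0.05 was reached by 2 of 7 in males, against 4.05% of all genes, and DESeq2 called 0.037% of all genes. DESeq2 called Bcl3 and Dio1 for the difference between the sexes as well (-2.30 and -1.49, edgeR adjusted p = 0.0786 and 0.104). Over all genes it called 3.32% for that difference and 3.74% between the wild type sexes. Dio1 was also called by DESeq2 between the wild type sexes (1.08 higher in WTF, DESeq2 adjusted p = 0.0151, edgeR adjusted p = 0.0646), and Bcl3 was 0.98 higher in WTF (edgeR adjusted p = 0.238).

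**Figure D4:**
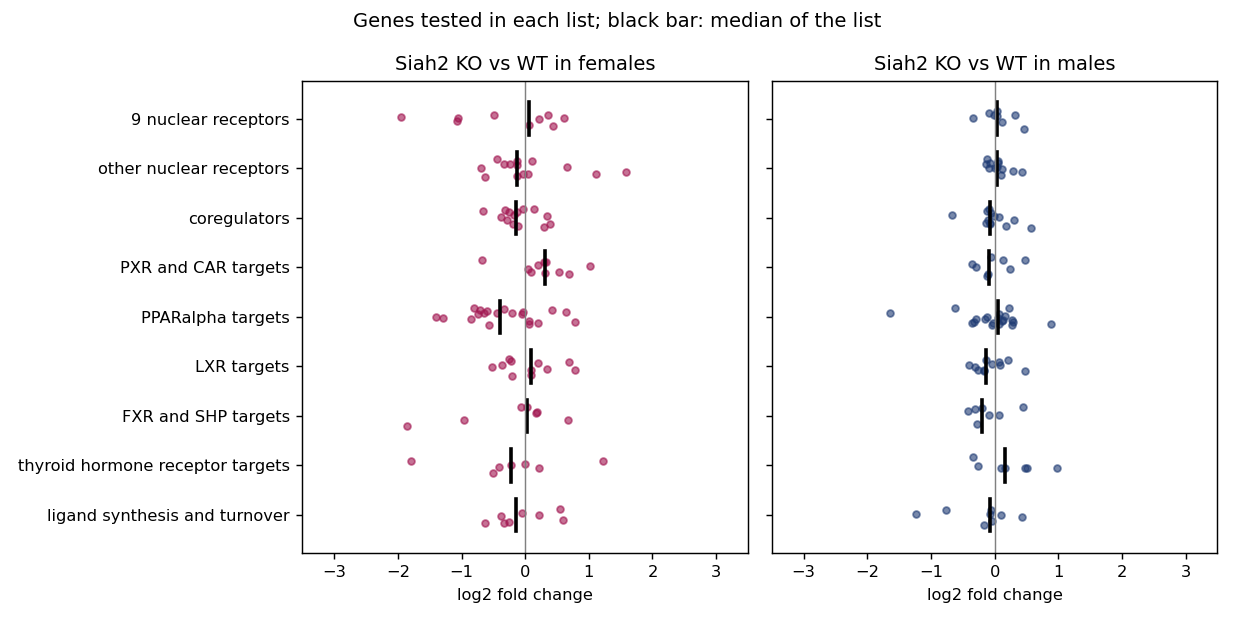
Log2 fold change (x axis, edgeR) of each tested gene of the receptors and of 8 lists of related genes (y axis) in Siah2 KO against wild type females and males, with a black bar at each median. The medians of PXR and CAR targets (0.304) and PPARα targets (-0.392) lie farthest from 0 in females.

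The other nuclear receptors and the machinery around them were measured as well. Of 14 other receptors tested in females, 5 were higher and 9 lower in KOF (median -0.127), and edgeR called 0. DESeq2 called 1 of the 14, against 3.7% of all genes, and 2 had an unadjusted p under 0.05, against 15.6%. These were Nr2c1 (TR2, an orphan receptor), at 18.8 ± 8.04 CPM in WTF and 57.1 ± 4.47 in KOF (log2 fold change 1.59, edgeR adjusted p = 0.0962, DESeq2 adjusted p = 0.00189), and Esrra (ERRα, a regulator of mitochondrial genes), at 11.3 ± 3.37 and 24.9 ± 1.56. Nr2c1 stood at 43.9 and 45.1 CPM in WTM and KOM, and DESeq2 called its difference between the sexes (1.58, edgeR adjusted p = 0.109), at 3.32% of all genes called. Between the wild type sexes Nr2c1 was lower in WTF (-1.21 on the log2 scale) and Rxrg, the gene of RXRγ, higher (1.18; edgeR adjusted p = 0.157 and 0.291). In males 8 of 12 were higher, with a median of 0.0380 and 0 called by edgeR, by DESeq2 or at an unadjusted p under 0.05. None of the 14 coregulators, the proteins that receptors recruit to repress or activate, had an unadjusted p under 0.05 in females (4 higher, 10 lower, median -0.152). In males the coactivator Ppargc1a had an unadjusted p of 0.00505 (-0.67, edgeR adjusted p = 1.0) and a difference between the sexes of 0.96 (adjusted p = 0.270). Of the 8 genes of ligand synthesis and turnover, 0 had an unadjusted p under 0.05 in females. In males Rdh11, a retinal reductase, was at -0.77 (edgeR adjusted p = 1.0). The oxysterol hydroxylase Cyp7b1 was called by edgeR and DESeq2 between the wild type sexes, at 29.7 ± 5.60 CPM in WTF and 225 ± 92.4 in WTM (edgeR adjusted p = 0.00283).

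The genes whose level followed each receptor most closely over the 12 mice were found by the Pearson correlation of log2 CPM among 6701 genes that averaged 10 CPM or more. For Nr1i2 they were Cyp2d26 (r = 0.911) and Dhrs4 (0.901), for Nr1h3 Rab17 (0.935) and Zfp120 (0.929), and for Nr1h4 Chchd7 (0.918) and Cbr1 (0.898). For Rxra they were Cox5b (0.958) and Tef (0.952), for Thrb Cmip (0.965) and Oxr1 (0.960), and for Ppara A230046K03Rik (0.863) and Cdc73 (0.860). These values describe 12 mice that share 4 groups and include WTF 1091, and no p is given for them. Nr1i3, Nr0b2 and Esr1 lay under the level that the comparison required.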

How the data were processed

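QuantSeq 3′ libraries (Lexogen) were made from the liver RNA of 12 mice, and trimming, mapping and counting were done by the authors on Illumina BaseSpace. The submitters' processing notes name STAR, DESeq and mm10, and no annotation is given in the sources used here. For this experiment the paper describes individual livers, but the labels speak of pools of 3 mice. The paper's account was used, and if it is wrong the p-values measure another spread. The deposited tables, one per sex, hold raw read counts per gene symbol without normalization, and each column was matched by its mouse number. Spreadsheet software had turned 27 symbols into dates, which held 0.2285% to 0.2724% of a library and stayed in the totals. Rn45s, a ribosomal RNA precursor, held 5.685% to 17.88% of the counts. Reads carried no molecular identifiers, so counting limits cover counting error only.

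Each comparison used edgeR 4.0.16 (filterByExpr, TMM, two-sided quasi-likelihood F test; R 4.3.3) over all genes that passed the filter, and a threshold of 0.05 after Benjamini-Hochberg adjustment. The difference between the sexes was fitted over the 4 groups together, and each other comparison on its own 6 mice. Alternatives were DESeq2 1.42.0, limma-voom (limma 3.58.1), no filter beyond 1 count, RLE scaling, a minimum of 10 counts in each library, libraries thinned to the smallest total, a fit of all 4 groups, each mouse left out, and DESeq2 without WTF 1091. DESeq2 without each other mouse, the comparison of both sexes together and the motif TCAAGG were added after the data were seen. TMM factors lay between 0.901 and 1.06, and plain totals moved a group mean by at most 1.04-fold. CPM for correlations had a prior count of 3 and was on a log2 scale. The code was tested on data simulated once per comparison with edgeR's estimates of the spread. In these data 200 genes were raised or lowered by 2 on the log2 scale. In the female comparison 15.2% of DESeq2 calls were false, against 5.78% by edgeR and 5.16% by limma-voom. In the other comparisons 5.82% to 6.92% of DESeq2 calls were false. Tables and figures used Python 3.11.15, pandas 2.3.3, numpy 2.4.6 and matplotlib 3.10.9. Positions and start windows came from RefSeq tables of GRCm38.p6, the assembly of mm10, which matched 9 of 9 genes.

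The receptors, the lists of related genes and markers and the tests were chosen with earlier results of these data known. Each receptor is given in every tested comparison, and from each list up to 3 genes with the smallest unadjusted p under 0.05 and any gene that DESeq2 called, except some that are not reported here individually; others enter as counts. Mouse numbers are unique to a mouse, so nothing was paired. The sexes were deposited in separate tables, counted in the same way as far as the sources say.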

Additional observations from a re-analysis of the deposited data

Results flagged for a closer look

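The response of Nr1i2 to loss of Siah2 differed between the sexes by DESeq2. The female log2 fold change less the male one was -1.37, with a DESeq2 adjusted p of 0.0200 and an edgeR adjusted p of 0.104. Nr1i2 averaged 134 CPM in WTF, 65.2 in KOF, 68.7 in WTM and 85.7 in KOM. KO females lay below wild type females in 3 of 3 mice. Over the 12 fits that left out a mouse, the DESeq2 adjusted p ran from 0.00316 to 0.0955. Dixon's test for single outlying values was not applied to groups of 3 mice.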

How the results depend on the processing

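Of 531 values of single receptors under another setting, 473 kept their direction and their side of the threshold, 23 came to pass it and 35, from 11 estimates, changed sign. In females 0 receptors were called by edgeR. DESeq2, the fit of all 4 groups, DESeq2 without WTF 1091 and DESeq2 without WTF 1089 called 1, no filter beyond 1 count called 2, and leaving out each mouse in edgeR gave 0 to 2, with 2 reached without WTF 1091. For the difference between the sexes, against 0 by edgeR, DESeq2 called 1, as it did without WTF 1091, WTF 1089, KOF 1070, KOF 1104, WTM 1055, WTM 1086 or KOM 1076, no filter called 2, and leaving out each mouse in edgeR gave 0 to 2. Between the wild type sexes, against 0, no filter, the fit of all 4 groups and DESeq2 without WTF 1091 called 1. In males no setting called a receptor. Over all genes the counts of calls in females were 0 by edgeR, 303 by DESeq2, 484 with no filter, 427 in the fit of all 4 groups and 936 without WTF 1091. For the difference they were 25, 260 by DESeq2, 325 with no filter and 522 without WTF 1091, and between the wild type sexes 130, 338 by DESeq2, 536 with no filter, 50 with at least 10 counts in every library, 505 in the fit of all 4 groups and 740 without WTF 1091. The common coefficient of biological variation in females was 0.286 with and 0.191 without WTF 1091. The other causes were not tested.

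The estimates that changed sign were small or rested on few counts. The largest of them under edgeR was Nr0b2 between the wild type sexes (0.589, and -0.011 to 1.03 with each mouse left out). Thrb in males was -0.0062, and 0.0084 by DESeq2, 0.00046 with RLE scaling, 0.020 with no filter, 0.0044 with at least 10 counts, 0.087 with thinned libraries, 0.012 in the fit of all 4 groups and -0.18 to 0.17 with each mouse left out. With each mouse left out, Ppara ran from -0.10 to 0.22 in females, from -0.14 to 0.20 in males, from -0.14 to 0.20 for the difference and from -0.16 to 0.083 between the wild type sexes. Nr1i3 ran from -0.62 to 0.27 in males and from -0.37 to 0.52 between the wild type sexes, Nr1h4 from -0.16 to 0.039 and Rxra from -0.0087 to 0.087 in males, and Esr1 from -0.48 to 0.89 for the difference. limma-voom gave -0.087 for Esr1 in the difference and 0.041 for Nr1i3 between the wild type sexes, and DESeq2 without WTF 1091 gave -0.031 for Ppara in the difference. No paired analysis was possible because the mouse numbers are unique to a mouse. At 2 to 49 counts per library, Nr0b2 and Esr1 have intervals that allow changes of several-fold, and Nr0b2 could not be fitted in females or for the difference where every library had to hold 10 counts.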

Other observations

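With both sexes together, taken as the mean of the female and the male change in the fit of all 4 groups and chosen after the values were seen, no receptor was called by edgeR or DESeq2, which gave Nr1i3, Nr0b2 and Esr1 no adjusted p. The smallest edgeR p was that of Esr1, whose mean was lower in the KO group of each sex: 6.82 CPM in WTF and 3.26 in KOF, and 3.497 in WTM and 1.27 in KOM. The mean change of Esr1 was -1.13 on the log2 scale (SE 0.41, edgeR adjusted p = 0.372), and it rests on 2 to 24 counts per library. Nr1i2 (-0.35, edgeR adjusted p = 0.561) and Nr0b2 (-0.74, adjusted p = 0.610) had smaller mean changes in size than in females. Their estimates had opposite signs in the sexes, and the male intervals included 0. Over all genes edgeR called 1 of 9806 and DESeq2 104 of the 4706 to which it gave an adjusted p.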
